A study of Mus musculus with 9 samples.

Results

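The mitochondrial ribosomal protein genes encode the protein part of the ribosome inside mitochondria. They were taken here as every gene of the array whose symbol begins with Mrpl or Mrps followed by a digit, with pseudogenes left out. The rule found 76 genes of 25206 on the array, and used no expression value. Expression had been profiled on Mouse Gene 2.0 ST arrays in sorted pulmonary lymphatic endothelial cells (PLECs) of C57BL/6N mouse fetuses on E16.5, on E17.5 and on E18.5, the last days before birth, with 3 samples per day. All 9 samples were sorted through the same gate (CD45-/Epcam-/CD31+/Vegfr3+/Lyve1+/Pdpn+), no treatment is named, and the days differed in gestational age alone as far as the labels say. Each sample pooled the lungs of 2 litters, so that the errors given below rest on the spread between pools. Values are log2 expression after robust multi-array averaging (RMA), in which a difference of 1 is a doubling.

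The mitochondrial ribosome (mitoribosome) translates the few messages of the mitochondrial genome, all of which encode subunits of the respiratory chain and ATP synthase. Its RNA is made in the mitochondrion, but its proteins are encoded in the nucleus, made by cytosolic ribosomes and imported. It has a large subunit, which forms the peptide bond, and a small subunit, which decodes the message. Some of its proteins have relatives in bacterial ribosomes, and others are found in mitochondria alone. Nuclear genes for mitochondrial proteins are known to be regulated by factors such as NRF1, the ETS factor GABP and YY1.

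Of the 76 genes, 73 exceeded the median of at least 1 array and were tested among 14096 genes, and 66 exceeded the median of all 9 arrays. The array medians lay between 3.79 and 3.91. The 6 lymphatic and endothelial markers (*Pecam1*, *Flt4*, *Lyve1* and *Pdpn*, which encode the proteins of the gate, and *Cdh5* and *Prox1*, which were not sorted on) averaged 8.65 to 9.23 in the 9 samples. Of these, *Pdpn* exceeded its E16.5 level at E18.5 (log2 change 1.46, FDR q = 0.0101, limma), and *Pecam1*, which encodes CD31, differed by -0.04 ± 0.15 (SE). Some epithelial markers rose over the same days. Among alveolar type I markers, 6 of 7 were called higher, with a mean log2 level of 5.35 to 5.62 in the E16.5 samples and 7.02 to 7.34 in the E18.5 samples. Among alveolar type II markers 3 of 7 were called higher, with means of 5.36 to 6.58 and 7.12 to 7.58. One of these, *Sftpd*, exceeded the array median in the 3 E18.5 samples alone, so that it entered the test through the day on which it was high. Likewise 1 of 4 tested airway markers (*Scgb1a1*) and 1 of 6 fibroblast markers (*Dpt*) were also higher, and 0 of 3 leukocyte, 0 of 3 erythroid and 0 of 5 platelet markers passed the test, with 0, 1 and 3 of them higher at an unadjusted p under 0.05. Platelet markers averaged 5.91 to 6.23 at E16.5 and 6.11 to 8.42 at E18.5. The part of these other transcripts in the changes described below was not tested.

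As a family, the mitochondrial ribosomal protein genes were highest in 2 of the 3 E16.5 samples and lowest in 1 of the 3 E18.5 samples. For each tested gene the deviation from its own mean over the 9 samples was taken, and the median over the 73 genes was 0.39, -0.04 and 0.32 in samples 1, 2 and 3 at E16.5. At E17.5 the medians were -0.09, 0.12 and -0.00, and at E18.5 they were -0.11, -0.45 and -0.06. The E16.5 and E18.5 samples did not overlap in this value, though E16.5 sample 2 lay just above E18.5 sample 3. Averaged by day, the sample medians were 0.22 ± 0.23 at E16.5, 0.01 ± 0.10 at E17.5 and -0.20 ± 0.21 at E18.5 (SD, n = 3 each), so the spread within a day was about as large as the step between days.

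**Figure D1:**
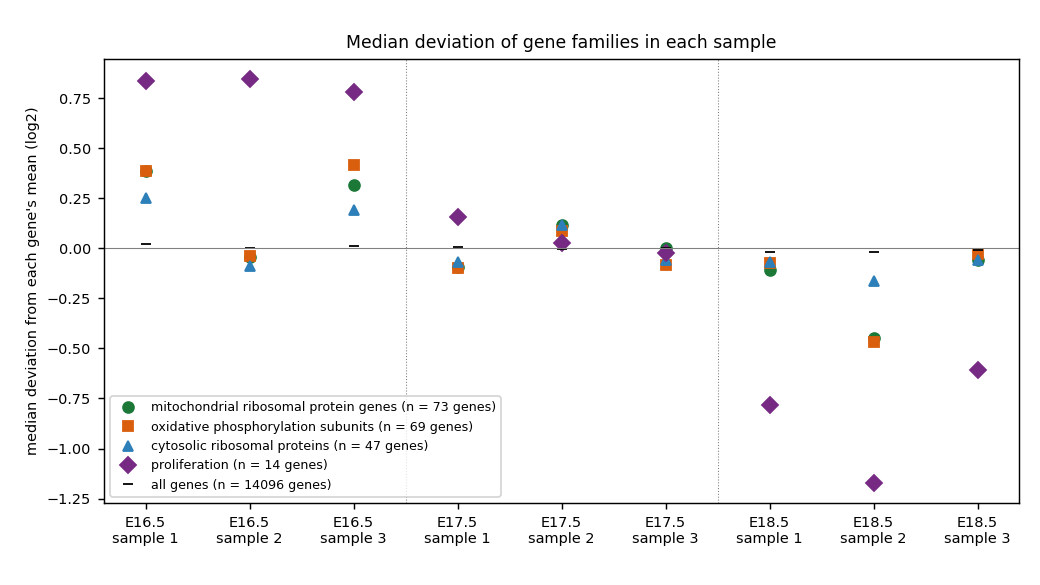
Median deviation (log2 units, vertical axis) of each family in each of the 9 samples, where a gene's deviation is its value minus its own mean over the samples. The 73 mitochondrial ribosomal protein genes (green circles) lay at 0.39 and 0.32 in E16.5 samples 1 and 3, at -0.04 in E16.5 sample 2 and at -0.45 in E18.5 sample 2; the oxidative phosphorylation subunits (orange squares) lay close to them in each sample, while the medians over all genes (black dashes) stayed near 0.

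Both samples numbered 2 stood apart within their day, in the same direction. E16.5 sample 2 was the lowest of its day for 65 of the 73 genes, against 38.7% of all genes tested. E18.5 sample 2 was the lowest for 56 of the 73, against 37% of all genes, and 48 genes were lowest in both. At E17.5, sample 2 was the highest of its day for 57 genes, so the number was not tied to low values. The 69 tested subunits of oxidative phosphorylation followed the same samples, with 61 lowest in E16.5 sample 2 and 56 in E18.5 sample 2. Of 47 tested cytosolic ribosomal proteins, 37 were lowest in E16.5 sample 2 and 22 in E18.5 sample 2. Among 14 proliferation genes, 5 and 12 were lowest in these samples. What set these samples apart was not tested. Leaving out E16.5 sample 2 moved the median change of the family between E16.5 and E18.5 from -0.43 to -0.58, and leaving out E18.5 sample 2 moved it to -0.32.

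Between E16.5 and E18.5, mitochondrial ribosomal protein genes were lower on the later day in most cases, by amounts that mostly stayed under 2-fold. The change was negative for 68 of 73 genes (93.2%, against 54.6% of all genes tested), and its median was -0.43 on the log2 scale, against -0.04 over all genes. It exceeded 1 log2 unit in 3 genes, *Mrpl42*, *Mrpl18* and *Mrpl47*. At the threshold, 7 of 73 genes (9.59%) passed the test (FDR q under 0.05), all lower at E18.5, where 5.16% of all genes were called lower. No gene of the family was called higher (0 of 73, against 3.71% of all genes; 0 at an unadjusted p under 0.05, against 10.6%, limma). At an unadjusted p under 0.05, 32 genes (43.8%) were lower, against 15.3% of all genes. Among the 32, *Mrpl51* and *Mrpl36* exceeded the array median at E16.5 alone and so entered the test through the day on which they were high. Every E18.5 sample was below every E16.5 sample for 29 genes (39.7%, against 18.3% of all genes), and the opposite order was found for 0 genes, against 11.9%. In bulk RNA of sorted cells, fewer cells of a type and less RNA per cell cannot be told apart.

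The number called changed as single samples were left out. It fell from 7 to 1 without E16.5 sample 1, to 2 without E16.5 sample 3, to 4 without E18.5 sample 1 and to 1 without E18.5 sample 2, and was 5 without E16.5 sample 2 and 10 without E18.5 sample 3. Over all genes tested the number called lower fell too, from 728 to between 243 and 606. It was 341 without E16.5 sample 1 and 368 without E18.5 sample 2. *Mrpl49* alone was called in each of these 6 fits. Over the same fits the number of genes with a negative change stayed between 62 and 71. Among the 66 genes above the median of all 9 arrays, 61 had a negative change (92.4%, against 58.6% of the 11125 genes that met this limit), with a median of -0.40 against -0.07.

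**Figure D2:**
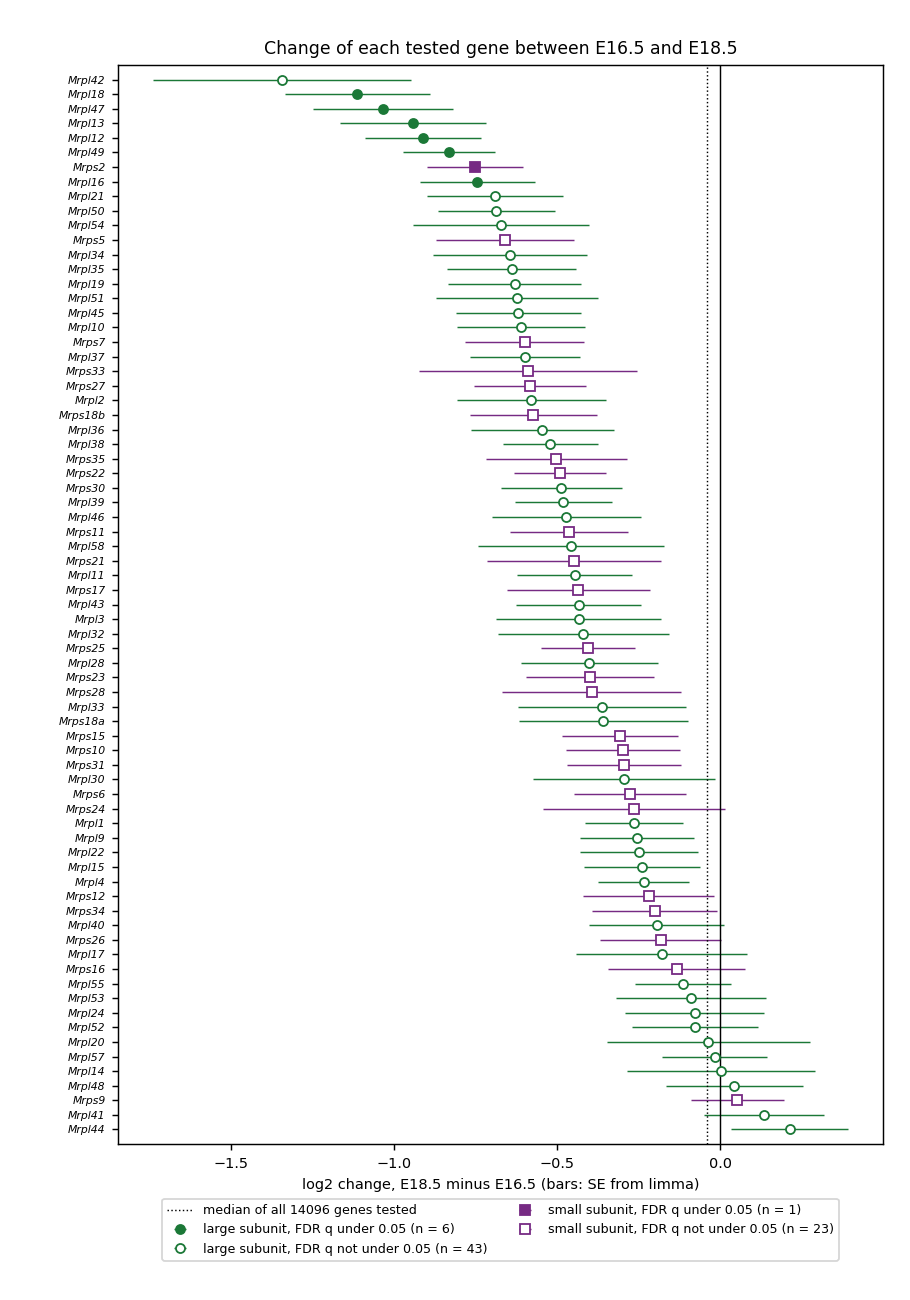
Log2 E18.5 minus E16.5 difference of each of the 73 tested genes with its standard error from limma (horizontal bars), ordered from the largest fall. Filled symbols mark the 7 genes with an FDR q under 0.05, circles the large and squares the small subunit; 68 genes lie left of 0 and the dotted line gives the median of all 14096 genes, -0.04.

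Of the 7 genes called lower, 6 encode proteins of the large subunit and 1, *Mrps2*, a protein of the small subunit. The large subunit had 49 of the 73 tested genes. *Mrpl18*, which encodes a protein of the central protuberance, the crest of the large subunit, measured 6.68, 6.36 and 6.42 in samples 1, 2 and 3 at E16.5, then 6.08, 6.09 and 5.48 at E17.5 and 5.84, 5.01 and 5.27 at E18.5. Its highest E18.5 value was thus below its lowest E16.5 value, with E17.5 between and partly overlapping E18.5. The fall was 2.16-fold (log2 change -1.11, SE 0.22, FDR q = 0.0203).

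*Mrpl47* belongs to the proteins around the exit of the tunnel through which the new peptide leaves. It measured 5.17, 4.65 and 5.15 at E16.5, 4.33, 4.68 and 4.61 at E17.5 and 3.58, 4.11 and 4.16 at E18.5. The E18.5 samples were the lowest 3 of the 9, and E18.5 sample 1 fell below the array median. The log2 change was -1.03 (SE 0.21, FDR q = 0.0234).

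*Mrpl12* encodes the protein of the flexible stalk that recruits translation factors, and in human cells it has also been found bound to the mitochondrial RNA polymerase. Its values were 7.25, 6.999 and 7.42 at E16.5, 6.73, 7.61 and 6.64 at E17.5 and 6.41, 6.05 and 6.47 at E18.5. E17.5 sample 2 was the highest of all 9, above each E16.5 sample, whereas all E18.5 samples were below the other days. The change between the outer days was -0.91 (SE 0.18, FDR q = 0.0192).

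*Mrpl13* and *Mrpl16* encode large subunit proteins with bacterial relatives, the latter near the site where transfer RNAs bind. *Mrpl13* measured 7.07, 6.78 and 6.99 at E16.5, 6.38, 6.66 and 6.29 at E17.5 and 6.12, 5.52 and 6.37 at E18.5, a log2 change of -0.94 (SE 0.22, FDR q = 0.0374). The 3 E16.5 samples were the highest, and the later days overlapped. *Mrpl16* measured 4.90, 4.48 and 4.67 at E16.5, 4.25, 4.31 and 4.31 at E17.5 and 3.80, 3.81 and 4.20 at E18.5, a change of -0.75 (SE 0.18, FDR q = 0.0372). For *Mrpl16* the 3 days did not overlap, and 2 of the E18.5 values were below the array median, where the size of a fall is less certain.

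*Mrpl49*, a protein found in mitochondria alone, had the lowest FDR q of the family. It measured 5.61, 5.61 and 5.47 at E16.5, 5.02, 5.39 and 4.81 at E17.5 and 4.89, 4.65 and 4.67 at E18.5. The 2 outer days were tight and far apart. E17.5 samples 1 and 2 lay between them, and E17.5 sample 3 lay below E18.5 sample 1. The fall was 1.78-fold (log2 change -0.83, SE 0.14, FDR q = 0.0110) and ranged from -0.91 to -0.79 as each sample was left out.

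*Mrps2* encodes a protein on the outer side of the small subunit. Its values were 5.85, 5.67 and 5.52 at E16.5, 5.04, 5.61 and 5.48 at E17.5 and 4.94, 4.82 and 5.03 at E18.5. All E18.5 samples were below all others, and E17.5 sample 1 was nearly as low. The change was -0.75 (SE 0.15, FDR q = 0.0201). Just outside the threshold lay *Mrpl50*, named after its value was seen, at -0.69 (SE 0.18, FDR q = 0.0509).

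**Figure D3:**
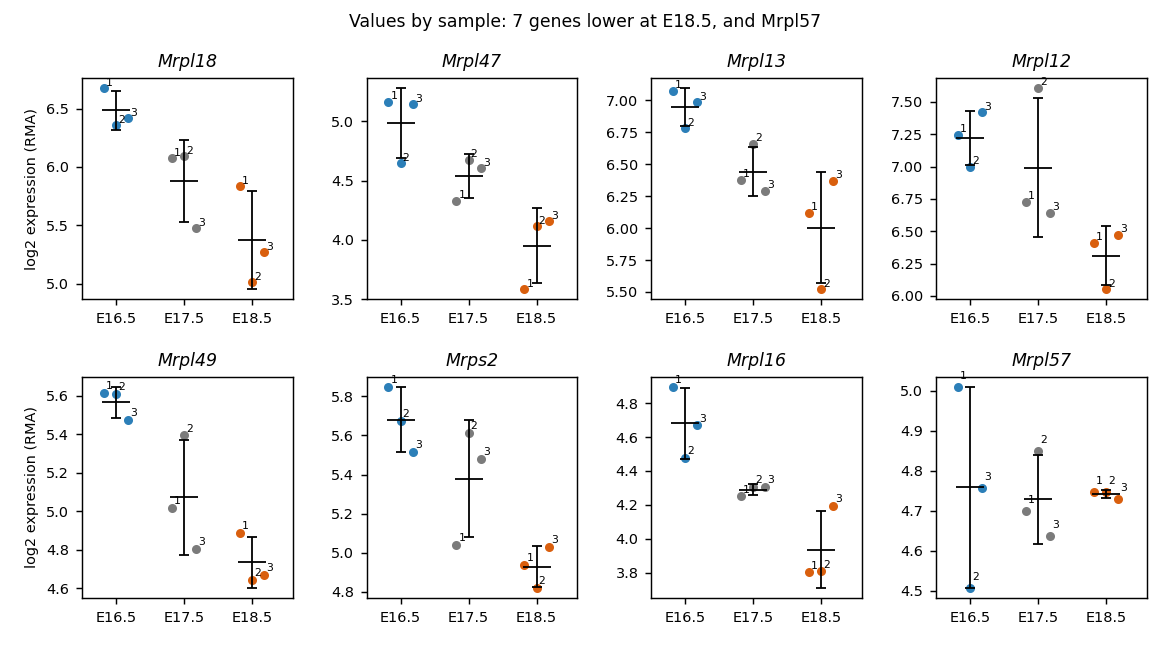
Log2 expression in each sample (points, numbered 1 to 3 within the day) with the mean and SD of each day (black bars, n = 3) for the 7 genes called lower at E18.5 and for *Mrpl57*, which differed by -0.02 between the outer days. Each panel has its own vertical axis, which does not start at 0; in the 7 called genes the E18.5 points lie below all E16.5 points, and in *Mrpl57* E16.5 spans the other days.

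The largest fall of the family did not pass the test. *Mrpl42*, another protein of mitochondria alone, measured 5.26, 4.64 and 5.13 at E16.5, 4.37, 4.15 and 4.20 at E17.5 and 4.44, 2.72 and 3.84 at E18.5, a log2 change of -1.34 (SE 0.39, FDR q = 0.0734). E18.5 sample 2 was far below the other 2 of its day, and the SD within days, 0.544, was the largest among the tested genes. *Mrps33* and *Mrpl20* had the next largest SD within days, 0.449 and 0.428. In *Mrps33* E16.5 sample 3 stood high (5.15, 4.71 and 5.98 over the day), and in *Mrpl20* E16.5 sample 2 stood low (5.38, 4.29 and 5.39). Over the 73 genes the SD within days had a median of 0.259, against 0.216 for all genes tested.

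Several other genes chosen for their role were lower by point value, as were 68 of the 73 genes, without passing the test. *Mrpl41*, chosen in the same way, changed by 0.13 (SE 0.18). At the stalk, *Mrpl10*, which anchors the *Mrpl12* protein, measured 5.95, 5.73 and 5.64 at E16.5 and 5.10, 4.87 and 5.53 at E18.5 (log2 change -0.61, SE 0.20, FDR q = 0.0927). *Mrpl11*, at the base of the stalk, measured 5.54, 5.15 and 5.42 and then 4.99, 4.66 and 5.12 (-0.45, SE 0.18, FDR q = 0.159). In neither gene did the outer days overlap. *Mrpl2* and *Mrpl3*, which reach towards the site of peptide bond formation, changed by -0.58 (SE 0.23, FDR q = 0.158) and -0.43 (SE 0.25, FDR q = 0.319), with overlapping days. *Mrpl45*, which holds the ribosome at the inner membrane where the new chains are inserted, measured 6.06, 5.53 and 5.77 at E16.5 and 5.43, 4.97 and 5.11 at E18.5 (-0.62, SE 0.19, FDR q = 0.0836). In the small subunit, *Mrps12*, at the decoding site, changed by -0.22 (SE 0.20, FDR q = 0.525).

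Mammals encode several paralogs of a bacterial small subunit protein, of which *Mrps18a* and *Mrps18b* were measured and *Mrps18c* was not analysed here. The *Mrps18a* protein sits in the large subunit despite its name, as does that of *Mrps30*. *Mrps18b*, of the small subunit, measured 6.88, 6.60 and 6.84 at E16.5 and 5.83, 6.26 and 6.51 at E18.5 (log2 change -0.57, SE 0.19, FDR q = 0.109), without overlap. *Mrps18a* measured 6.57, 6.06 and 6.25 and then 5.61, 5.68 and 6.52, so that 1 of the E18.5 samples was as high as the E16.5 ones (-0.36, SE 0.26, FDR q = 0.417). *Mrps30* changed by -0.49 (SE 0.18, FDR q = 0.144).

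In 5 genes the change was above 0, and none of them passed the test. *Mrpl44*, related to ribonuclease III, had the largest, at 0.21 (SE 0.18, FDR q = 0.482), with values of 4.30, 3.86 and 4.31 at E16.5 and 4.26, 4.28 and 4.58 at E18.5. *Mrpl41* followed at 0.13 (SE 0.18), *Mrps9* at 0.05 (SE 0.14) and *Mrpl48* at 0.04 (SE 0.21). *Mrpl14* differed by 0.00 (SE 0.29), with E18.5 samples split at 5.18, 4.05 and 5.11 around E16.5 values of 4.75, 4.66 and 4.92. *Mrps9* was among the least variable genes of the family, between 5.85 and 6.16 in all 9 samples. For *Mrpl14*, *Mrpl48* and *Mrps9* the sign turned negative when each array was centred on its median.

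The 3 genes that were not tested lay below the array median on all 9 arrays. *Mrps36*, whose protein is now assigned to the oxoglutarate dehydrogenase complex and not to the ribosome, lay between 1.92 and 3.04. *Mrpl23* had means of 1.99 ± 0.72, 3.15 ± 0.58 and 2.70 ± 0.61 on the successive days (SD, n = 3), and *Mrps14* lay between 1.94 and 3.32. At this level an array gives no usable order of the days. Of the tested genes, *Mrpl51* and *Mrpl36* exceeded the median on only 2 arrays, E16.5 samples 1 and 3. *Mrpl27* has no row in the data used here and was not analysed.

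Both intervals held mostly negative changes. Over all 3 days, which include the samples of the outer-day comparison, 6 genes changed (8.22%, against 7.87% of all genes tested, moderated F of limma): *Mrpl47* (FDR q = 0.0261), *Mrpl49* (0.0270), *Mrpl18* (0.0353), *Mrpl16* (0.0365), *Mrpl13* (0.0461) and *Mrps2* (0.0474). *Mrpl12*, whose E17.5 samples were widely spread, did not pass (FDR q = 0.0842). At an unadjusted p under 0.05 there were 25 genes, 34.2% against 24.2% of all genes. Among the 25, *Mrpl51* entered the test through E16.5 alone, the day on which it was high. The number called was 0 without E16.5 sample 1, E16.5 sample 3 or E18.5 sample 2, and 3 without E17.5 sample 3 or E18.5 sample 1. Over all genes this number was not counted with samples left out.

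No gene passed the test for a single step. From E16.5 to E17.5, 0 genes were called lower and 0 higher (0.156% and 0% of all genes), with 10 lower (13.7%, against 8.41% of all genes) and 0 higher (against 4.69%) at an unadjusted p under 0.05 (limma). The median change was -0.21, against -0.02 over all genes, and 62 of 73 changes were negative (84.9%, against 53.5% of all genes). From E17.5 to E18.5, 0 were called lower and 0 higher (0.638% and 1.14% of all genes), with 11 lower (15.1%, against 7.75%) and 0 higher (against 8.08%) at an unadjusted p under 0.05 (limma). Here the median change was -0.22, against -0.03 over all genes, and again 62 changes were negative (84.9%, against 55.7% of all genes). The steps shared the E17.5 samples. Their difference was called in 0 genes (0% of all genes), and 1 gene, *Mrpl30*, differed at an unadjusted p under 0.05 (1.37%, against 7.01% of all genes; its FDR q was 0.699 in limma). This does not show that the steps were alike.

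The means followed the order E16.5, E17.5, E18.5 from high to low in 52 of the 73 genes, against 30.1% of all genes tested. The days did not overlap at all in 3 genes that fell throughout (*Mrpl16*, *Mrpl37* and *Mrpl39*, the last 2 named after their values were seen), against 3.18% of all genes. *Mrpl39*, another large subunit protein, measured 7.94, 7.67 and 7.82 at E16.5, 7.49, 7.65 and 7.56 at E17.5 and 7.39, 7.17 and 7.43 at E18.5. Each day lay below the one before, by steps of -0.24 each, and the change over both was -0.48 (SE 0.15, FDR q = 0.0840).

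**Figure D4:**
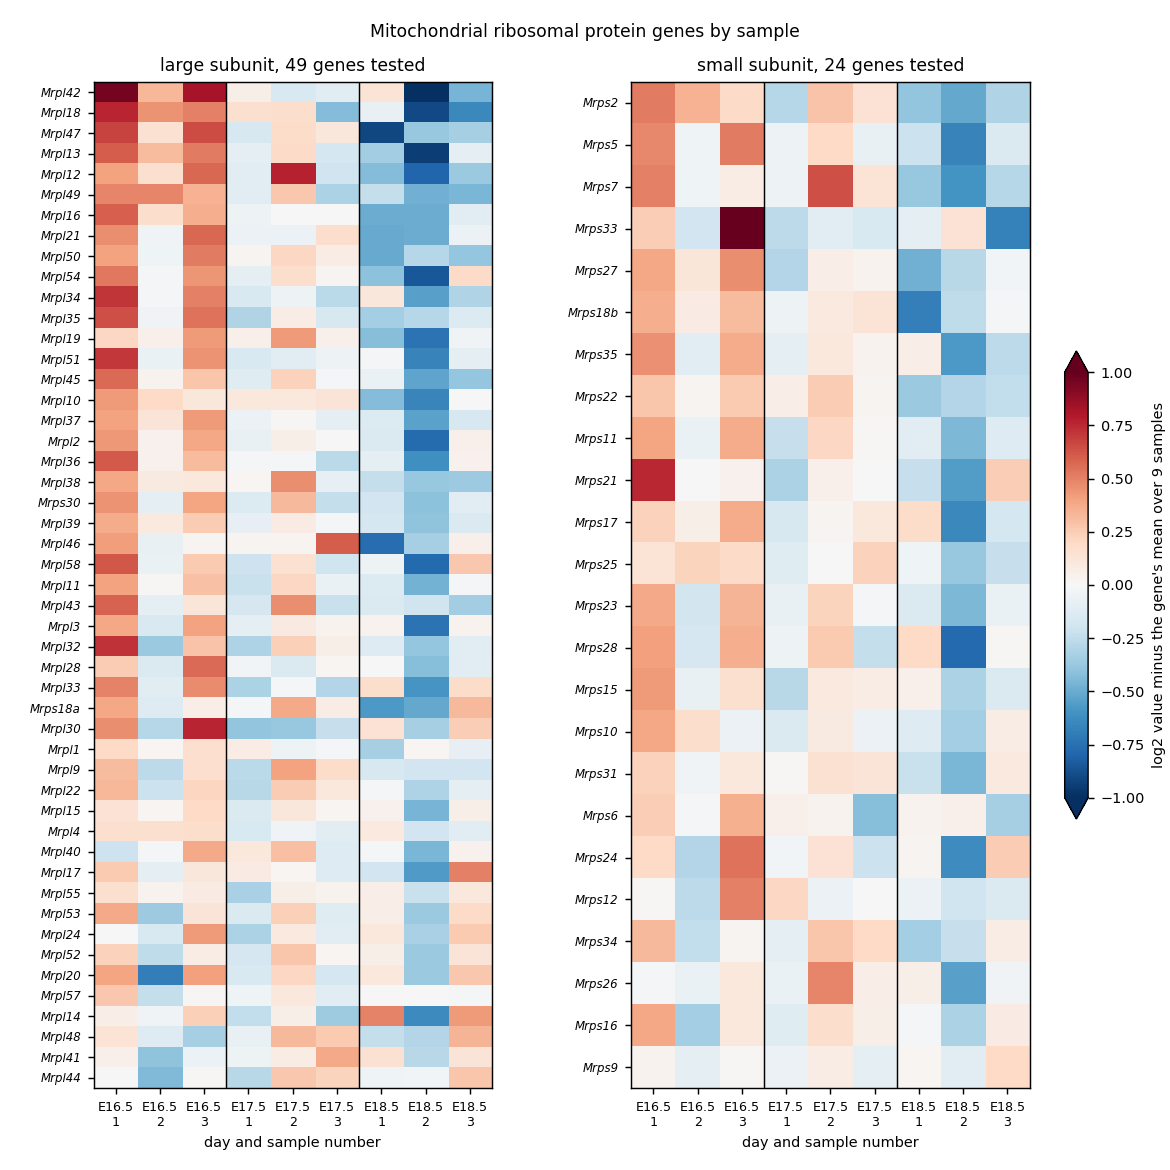
Value of each tested gene in each sample as the deviation from its own mean over the 9 samples (colour, log2 units, cut at -1 and 1), for the 49 genes of the large subunit and the 24 of the small subunit, ordered by the E16.5 to E18.5 change. Columns are samples 1 to 3 of each day; E16.5 samples 1 and 3 are red and E18.5 sample 2 blue over most rows, and E16.5 sample 2 is pale.

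By subunit, the large one had 6 genes called of 49 tested (12.2%) and a median change of -0.45, and the small one had 1 of 24 (4.17%) and a median of -0.40. Proteins with bacterial relatives had 6 called of 41 (14.6%) and a median of -0.42, and proteins of mitochondria alone 1 of 32 (3.12%) and a median of -0.46. Over all genes tested, 5.16% were called lower. All classes had a share of negative changes between 90.6% (29 of 32, mitochondria alone) and 95.8% (23 of 24, small subunit). The classes followed the current nomenclature of the mitoribosome. *Mrps18a* and *Mrps18b*, though paralogs of a bacterial protein, were thus counted among the proteins of mitochondria alone. No test was made between the classes. A further 5 tested proteins of the mitoribosome carry other symbols. All of these had a negative change, and *Ptcd3*, a pentatricopeptide protein of the small subunit, was called lower (-0.96, SE 0.22, FDR q = 0.0312), while *Dap3*, which binds GTP in the same subunit, changed by -0.24 (SE 0.14, FDR q = 0.317).

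Genes that build the mitoribosome or work with it were set beside the family without a test between them. Over all genes tested, 5.16% were called lower. Among assembly and ribosomal RNA factors, 2 of 23 tested (8.7%) were called lower and 0 higher (4 lower and 1 higher at an unadjusted p under 0.05), with a median of -0.15. The called ones were *Noa1* (-0.81, SE 0.17, FDR q = 0.0228), a GTPase, and *Fastkd2*, which acts in the maturation of the large subunit. *Fastkd2* exceeded the array median in the 3 E16.5 samples alone and so entered the test through the day on which it was high. Its mean log2 level was 4.17 ± 0.21 at E16.5 and 3.29 ± 0.11 at E18.5 (SD, n = 3 each), given here as a description. Of 15 translation factors 1 was called lower, *Gfm1*, an elongation factor (-0.61, SE 0.14, FDR q = 0.0318), and 0 higher. At an unadjusted p under 0.05, 7 of the 15 were lower and 0 higher, and the median was -0.37. For maintenance and transcription of mitochondrial DNA 0 of 17 were called, with 4 lower and 2 higher at an unadjusted p under 0.05 and a median of -0.31. *Twnk*, the helicase of the mitochondrial genome, had the smallest p there (-0.49, SE 0.15, FDR q = 0.0765) and exceeded the array median in 0 of the 3 E18.5 samples.

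Of 10 tested regulators of nuclear genes for mitochondria, 0 were called, with 4 lower and 0 higher at an unadjusted p under 0.05. The smallest p was that of *Hcfc1*, a cofactor of transcription (-0.68, SE 0.18, FDR q = 0.0548). *Nrf1* changed by -0.35 (SE 0.15, FDR q = 0.179), and *Gabpa*, the DNA-binding part of GABP, by -0.32 (SE 0.17, FDR q = 0.281). The messages encoded by mitochondrial DNA itself were not analysed here.

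Of the families set beside it, the oxidative phosphorylation subunits, most of which belong to complexes that the products of the mitoribosome join, had the nearest median. Of 69 tested, 7 were called lower (10.1%, against 5.16% of all genes) and 0 higher, 64 had a negative change (92.8%) and the median was -0.48. Cytosolic ribosomal proteins had 0 of 47 called lower and 0 higher (9 lower and 0 higher at an unadjusted p under 0.05), 36 negative changes (76.6%) and a median of -0.24. The 14 proliferation genes were all called lower, with a median of -1.67. No test was made between the families, and the part of proliferation in the change of the mitochondrial ribosomal protein genes was not tested.

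**Figure D5:**
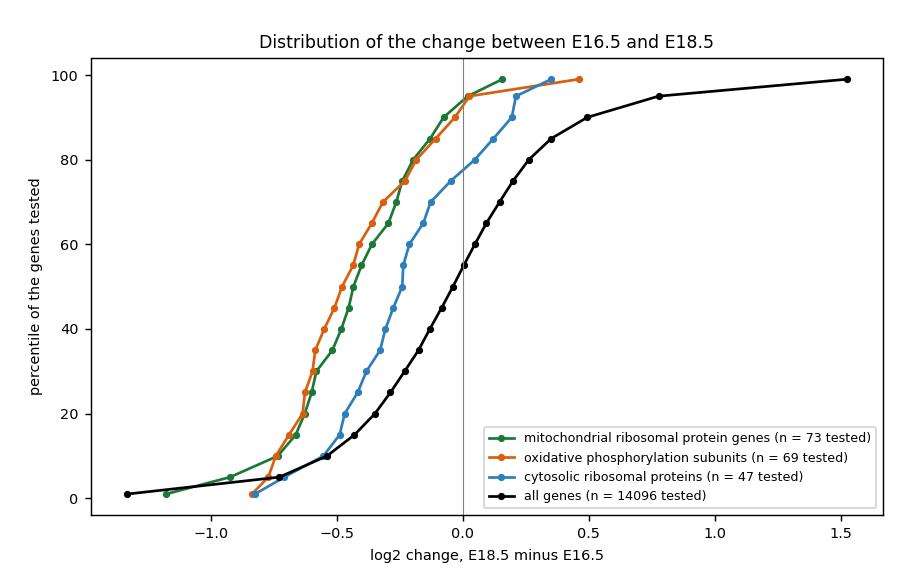
Percentiles of the log2 difference, E18.5 minus E16.5 (horizontal axis) over the tested genes of each family (vertical axis, percent). The curves of the mitochondrial ribosomal protein genes (green) and the oxidative phosphorylation subunits (orange) run together with medians of -0.43 and -0.48, left of the cytosolic ribosomal proteins (blue, -0.24) and of all genes (black, -0.04).

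A feature shared by many of the genes, which the rule did not use, is the layout of their promoters. RefSeq (GRCm38.p6) promoter windows of 300 bases, from 250 before to 50 after the start of transcription, were found for 67 of the 76 genes (73 windows). Another gene began on the opposite strand within 1000 bases, pointing away, for 24 of the 67 (35.8%), against 18.6% of the 10314 tested genes with a window. In 1 case both neighbours belong to the family: *Mrpl46* and *Mrps11*, one of each subunit, start 42 bases apart on chromosome 7. They changed by -0.47 (SE 0.23, FDR q = 0.235) and -0.46 (SE 0.18, FDR q = 0.154), neither of which passed the test. Other neighbours also act in mitochondria, among them *Twnk* at *Mrpl43*, *Sars2*, a mitochondrial transfer RNA synthetase, at *Mrps12*, and *Ndufb5*, a subunit of complex I, at *Mrpl47*. *Ndufb5* changed by -0.69 (SE 0.23, FDR q = 0.0983) beside -1.03 in *Mrpl47*.

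Neighbours in a pair had like changes in some cases and unlike ones in others. *Mrpl18* and its neighbour *Tcp1*, a subunit of the cytosolic chaperonin, were both called lower (*Tcp1* -0.69, SE 0.14, FDR q = 0.0229). *Mrpl49* was called lower while *Fau*, which encodes a cytosolic ribosomal protein, changed by 0.22 (SE 0.17, FDR q = 0.429). *Mrpl57* was flat at -0.02 (SE 0.16) beside *Ska3*, a gene of the mitotic kinetochore, which fell by 1.15 log2 units (SE 0.21, FDR q = 0.0149). Of 21 tested neighbours outside the family, 3 were called lower, 0 higher and 16 had a negative change, with a median of -0.24. Over all genes tested, 5.16% were called lower and 54.6% had a negative change. The differences within pairs were not tested.

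The windows were searched on both strands for the letters of the NRF1 motif (GCGCA and GCGC with 1 base between them), CCGGAAG, bound by ETS factors such as GABP, and AANATGGCG, bound by YY1, where N is any base; none of these motifs contains another. The NRF1 motif stood in 13 of the 73 windows (17.8%, against 8.99% of 13023 windows of tested genes and 4.6% of all 32851 windows). CCGGAAG stood in 24 (32.9%, against 16.1% and 8.86%) and AANATGGCG in 10 (13.7%, against 4.61% and 2.38%). CACGTG, the E-box bound by factors such as MYC, stood in 6 (8.22%, against 9.47% and 7.15%). These 6 windows belong to 4 genes, because overlapping windows of *Mrpl2* hold the same site. The GC content had a median of 58.3% in the windows of the family and 60.7% in those of tested genes. A match is a stretch of letters and not a measured binding site.

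Windows of 5 genes are shown, each 5′ to 3′ on the strand of its gene with 250 bases before the first transcribed one, and with motif matches in capitals. *Mrpl12* (chr11:120484387-120484686, plus strand) has the reverse strand of the NRF1 motif beginning 81 bases before the start, and *Mrpl18* (chr17:12916042-12916341, minus strand) has the ETS motif 240 bases before it. The start of *Tcp1*, the neighbour of *Mrpl18*, lies 238 bases from that of *Mrpl18*, beside this match. *Mrpl49* (chr19:6057706-6058005, minus strand), which had the lowest FDR q, has no match. *Mrps11* (chr7:78782881-78783180, plus strand) holds the start region shared with *Mrpl46*, with the reverse strand of the YY1 motif 108 bases before its own start. *Mrpl57* (chr14:57825989-57826288, plus strand), which hardly differed between days, has both the NRF1 motif 57 bases before and the ETS motif 5 bases into the transcript.
Mrpl12: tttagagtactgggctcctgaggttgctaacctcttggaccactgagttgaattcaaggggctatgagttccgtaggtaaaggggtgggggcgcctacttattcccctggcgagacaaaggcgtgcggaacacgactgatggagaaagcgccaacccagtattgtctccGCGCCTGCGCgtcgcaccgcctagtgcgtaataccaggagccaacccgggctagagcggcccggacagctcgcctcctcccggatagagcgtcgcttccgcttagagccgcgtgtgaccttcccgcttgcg
Mrpl18: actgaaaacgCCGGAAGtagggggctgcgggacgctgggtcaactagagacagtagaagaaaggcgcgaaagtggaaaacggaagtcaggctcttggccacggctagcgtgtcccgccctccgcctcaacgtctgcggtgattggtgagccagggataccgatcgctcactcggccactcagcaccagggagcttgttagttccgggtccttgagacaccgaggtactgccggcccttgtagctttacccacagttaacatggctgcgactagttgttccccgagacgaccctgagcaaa
Mrpl49: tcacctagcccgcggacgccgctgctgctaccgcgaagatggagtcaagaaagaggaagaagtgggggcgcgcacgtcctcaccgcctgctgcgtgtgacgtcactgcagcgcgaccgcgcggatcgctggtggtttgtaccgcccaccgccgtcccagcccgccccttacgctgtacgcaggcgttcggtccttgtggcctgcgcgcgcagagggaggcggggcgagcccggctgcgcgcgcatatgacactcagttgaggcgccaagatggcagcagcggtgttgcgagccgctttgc
Mrps11: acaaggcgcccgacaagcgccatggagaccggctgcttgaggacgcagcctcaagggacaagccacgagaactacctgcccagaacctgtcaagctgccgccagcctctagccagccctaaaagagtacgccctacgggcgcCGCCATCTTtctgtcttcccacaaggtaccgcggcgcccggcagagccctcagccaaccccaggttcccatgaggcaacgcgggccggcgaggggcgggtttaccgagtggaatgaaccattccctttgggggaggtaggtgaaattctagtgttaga
Mrpl57: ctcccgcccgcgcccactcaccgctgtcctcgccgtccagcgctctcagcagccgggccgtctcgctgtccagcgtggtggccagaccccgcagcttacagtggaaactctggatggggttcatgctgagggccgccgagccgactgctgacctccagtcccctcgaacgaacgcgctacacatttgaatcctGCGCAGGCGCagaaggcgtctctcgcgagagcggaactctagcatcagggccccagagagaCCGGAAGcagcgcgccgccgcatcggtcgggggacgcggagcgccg

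Changes were also set out by motif. Tested genes with the NRF1 motif had a median change of -0.26 (n = 13) and those without it -0.45 (n = 51). With the ETS motif the medians were -0.42 (n = 24) and -0.44 (n = 40), and with the YY1 motif -0.52 (n = 10) and -0.40 (n = 54). Of the 6 called genes with a window, *Mrpl12* and *Mrpl18* had a match, and *Mrpl47*, *Mrpl16*, *Mrpl49* and *Mrps2* had none of the 4 motifs. These values are descriptions, and no test was made.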

How the data were processed

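RNA of 9 pooled, sorted samples was measured on 1 array each, 3 per day. The log2 values are those the authors deposited: RMA expression per gene (background correction, quantile normalization and median polish), computed with affy 1.36.1 in R 2.15.1 and a Brainarray mapping of probes to Entrez Gene (version 17.0.0). Quantile normalization gives the arrays 1 distribution of probe values, so a change is relative to the other genes of the array. The number of arrays limits the precision. RefSeq symbols were found for 23740 of 25206 genes, and 1466 stayed unnamed.

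A gene was tested where it exceeded the array median on 1 or more of 9 arrays. Tests were made with limma 3.58.1 (R 4.3.3). E18.5 was compared with E16.5 on these 6 arrays, and the moderated F over the 3 days, each step and the difference of the steps came from all 9. The Benjamini-Hochberg FDR q was taken over all 14096 genes tested, with calls at an FDR q under 0.05. Tests were two-sided. The p-values set a difference between days against the spread between pooled samples, moderated over all genes tested. The family as a whole was not tested.

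The members, the 15 gene lists (154 genes, 135 matched) and the tests were chosen with earlier results of these data known. Genes were named by rule: members called in any test, the 5 largest rises and falls, the 3 largest SDs within days, the 3 smallest changes, members chosen for their role, members below the filter, and per list up to 4 called genes (or the smallest p). Others are marked where they stand, or are promoter neighbours. The fits were tested on simulated data. As alternatives, the filter was dropped or set at 3 arrays, arrays were centred or normalized again by quantiles, eBayes was run with trend and robust settings or on all genes before the filter, array weights, all 9 arrays or a replicate block were used, and each sample was left out.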

Additional observations from a re-analysis of the deposited data

How the results depend on the processing

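With 3 samples per day the calls of single genes were unstable. The median change of the mitochondrial ribosomal protein genes from E16.5 to E18.5 stayed between -0.58 and -0.32 under all alternatives. These fits reuse the same arrays, in which the genes moved together by sample, so they cannot show how other pools would behave. The number called lower at E18.5, 7, became 15 with arrays centred on their median, 15 with array weights and 17 in the fit on all 9 arrays, each of which kept all 7 genes, and it ranged from 1 to 10 as each sample was left out. Over all genes, the number called lower was 728. It became 1140 with arrays centred, 955 with array weights and 1118 in the fit on all 9 arrays. It ranged from 243 to 606 as each sample was left out. The number changed over the 3 days, 6, became 3 with no filter and 13 with array weights, and ranged from 0 to 6 as each sample was left out. Lower at E17.5 than at E16.5 were 0 genes, but 2 with array weights (*Mrpl35* and *Mrpl49*). Lower at E18.5 than at E17.5 were 0, or 1 (*Mrpl10*) without E18.5 replicate 3. Under the alternatives, calls over the 3 days and for single steps were not counted over all genes. Centring the arrays moved the median of all genes from -0.04 to -0.12 and the calls over all genes from 523 higher and 728 lower to 468 and 1140.

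The labels give each day the numbers 1 to 3 without a shared source, and the data did not pair them: deviations from the day means correlated between -0.36 and 0.29 in the 9 same-numbered pairs, with 2 above 0.1, and 0 samples were closest to their own number. With the replicate block, 7 genes were called lower at E18.5, of which 5 were among the 7 called without it; *Mrpl47* (FDR q = 0.0519) and *Mrpl16* (0.0582) were replaced by *Mrpl42* (0.0328) and *Mrps5*.

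Genes near 0 changed sign. Centring gave -0.076 for *Mrpl14*, -0.036 for *Mrpl48* and -0.026 for *Mrps9*, array weights -0.010 for *Mrpl14*, and a second quantile normalization 0.0054 for *Mrpl20* and 0.012 for *Mrpl57*. Leaving out single samples gave ranges of -0.20 to 0.37 (*Mrpl14*), -0.40 to 0.15 (*Mrpl20*), -0.14 to 0.11 (*Mrpl57*), -0.16 to 0.17 (*Mrpl48*) and -0.029 to 0.12 (*Mrps9*). Where these differ the cause was not tested. Values near the array median carry little signal over background.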
